A study of Mus musculus with 288 samples.

Results

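The genes described are Tnf and 8 other genes for secreted cytokines, namely Il12b, Il6, Il10, Il12a, Il23a, Il27, Csf1 and Ifnb1, in mouse bone-marrow-derived macrophages. They were taken by name, as 9 of the 23481 genes of a count table of unique molecular identifiers (UMI), short tags that let each captured RNA molecule be counted once. Of the 9, 7 had at least 1 UMI, against 14708 genes of the whole table. Il12a and Il23a each had a row and no UMI.

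The cells came from C57BL/6 mice aged 12 weeks and were grown from marrow for 7 days with M-CSF, the macrophage growth factor. They were then held for 24 h in DMSO, the vehicle, in dCA at 100 nM or in BRD-6989 at 1 µM, both labelled as inhibitors of CDK8, and either stimulated or left without stimulus (NoStim). CDK8 is the kinase of the Mediator complex, which links transcription factors to RNA polymerase II, and dCA and BRD-6989 are known from earlier work to raise IL-10 in activated myeloid cells. The 11 stimuli were LPS, MDP with LPS (MDP_LPS), Pam3cys, Zymosan, R848, CpG, FLA, Poly(I:C), SeV, TDB and MDP. RNA was taken at 15, 30, 45, 60, 90, 120, 150 and 180 min, in 1 well for each of the 288 combinations. The cells also went through a reporter assay of transcription factor activity, and how the reporters were brought in is not given in the sources used here.

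Each pretreatment was 1 plate of 96 wells with its own library index, so the inhibitor and the plate cannot be told apart. Each time was 1 plate row and each condition 1 plate column on all 3 plates, so condition, time and plate position cannot be told apart either. No separate cultures or animals are named, and p-values therefore measure the spread between wells or between summed wells, which may be technical. Wells held 37542 to 127223 UMI (median 77485), or 21810 to 70797 once Rn45s, the ribosomal RNA precursor, was left out. Rn45s took 52.7% ± 6.88 of UMI in DMSO wells, 49.0% ± 7.04 in dCA wells and 43.6% ± 6.75 in BRD-6989 wells (SD, n = 96 each). All levels below are in CPM, the UMI of a gene per 1000000 UMI of the well or summed wells without Rn45s, and as bulk RNA they cannot separate fewer expressing cells from less RNA per cell. All 10 of 10 macrophage markers had UMI and summed to 4307 to 5400 CPM over the 12 conditions on the DMSO plate, 4076 to 4793 on the dCA plate and 4282 to 5251 on the BRD-6989 plate. Of the 9 neutrophil markers with a row, 8 had UMI, and they summed to 30.9 to 101 CPM on the DMSO plate, 22.9 to 80.8 on the dCA plate and 30.4 to 68.2 on the BRD-6989 plate. Their directions differed: S100a8 was at 12.7, 1.67 and 0.924 CPM and S100a9 at 14.4, 1.39 and 1.62 in that order of plates, while Cxcr2 was at 34.4, 50.6 and 49.2. Of 9 dendritic cell markers 6 had UMI, summing to 378 to 1007, 214 to 823 and 280 to 760 CPM. Most of this was Cd83, at 730, 562 and 481, which activated macrophages also express, followed by Xcr1 at 20.9, 18.3 and 16.2, while Flt3, Cd209a and Clec9a were at 0 UMI. The erythroid markers were at 0 UMI too, and the part of the plate difference in the results below was not tested.

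Macrophages detect microbial molecules through Toll-like and other receptors, which switch on NF-kB, AP-1 and interferon regulatory factors within minutes. Tnf is an immediate target of this switch, and its protein, tumour necrosis factor, spreads the alarm. Il12b encodes the p40 chain shared by IL-12 and IL-23, and Il12a and Il23a encode their partner chains p35 and p19. Il6 encodes an inflammatory and acute-phase cytokine, Il27 the p28 chain of IL-27, Ifnb1 interferon beta, Il10 the cytokine that restrains these responses, and Csf1 M-CSF itself, the factor already in the medium.

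The promoters of 4 members with an exact match to a searched motif are printed, from RefSeq on GRCm38.p6. Each is given as the 250 bases before the transcription start, 5′ to 3′ on the gene's own strand. Sites with other letters or spacing were not searched. Capitals mark the matches. Tnf lies on chr17:35199367-35202007 (minus strand) and its promoter on chr17:35202008-35202257, with a TATA box in capitals near the end. The Ifnb1 promoter, chr4:88522795-88523044 (minus strand), has 1 NF-kB (kB consensus) site and 2 TATA matches. The Il6 promoter, chr5:30012864-30013113 (plus strand), starts with an AP-1 match and holds a kB site close to the start. The Csf1 promoter, chr3:107760470-107760719 (minus strand), has 1 kB match.
Tnf: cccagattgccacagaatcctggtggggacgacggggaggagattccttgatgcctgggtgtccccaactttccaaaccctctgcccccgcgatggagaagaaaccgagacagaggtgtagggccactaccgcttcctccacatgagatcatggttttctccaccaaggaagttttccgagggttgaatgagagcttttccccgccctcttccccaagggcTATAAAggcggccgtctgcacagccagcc
Ifnb1: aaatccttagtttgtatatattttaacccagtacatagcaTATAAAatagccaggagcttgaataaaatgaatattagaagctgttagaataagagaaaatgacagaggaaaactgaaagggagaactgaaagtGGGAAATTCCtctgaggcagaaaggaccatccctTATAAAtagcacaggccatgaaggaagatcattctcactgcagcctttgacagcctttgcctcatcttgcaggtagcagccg
Il6: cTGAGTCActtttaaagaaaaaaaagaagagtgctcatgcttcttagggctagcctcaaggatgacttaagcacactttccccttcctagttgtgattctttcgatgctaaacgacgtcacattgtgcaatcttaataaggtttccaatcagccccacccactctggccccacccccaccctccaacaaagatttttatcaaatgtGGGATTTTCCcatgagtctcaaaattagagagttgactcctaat
Csf1: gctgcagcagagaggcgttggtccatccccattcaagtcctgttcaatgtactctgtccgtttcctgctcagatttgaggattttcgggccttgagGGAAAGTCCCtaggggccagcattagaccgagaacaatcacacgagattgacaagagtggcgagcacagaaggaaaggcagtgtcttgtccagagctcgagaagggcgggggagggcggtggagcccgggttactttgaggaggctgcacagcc

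The kB matches ended 107 bases before the start in Ifnb1, 35 in Il6 and 145 in Csf1. Searched on both strands, the kB consensus (by name) was in 7.25% of 32851 mouse promoters of this length, TGANTCA for AP-1 in 6.75%, TGACGTCA for CRE in 1.55%, GAAA separated by 2 bases from a second GAAA (the core of an interferon response element) in 2.98%, and TATAAA in 12.4%. The promoters of Il12b, chr11:44399813-44400062 (plus strand), and the 2 entries of Il12a held none of these letters. Promoters of 6 of the 9 members were in the table, and those of Il10, Il23a and Il27 were not analysed here.

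Tnf was the member with the most data, at 4730 UMI in 266 of 288 wells and 5.83 reads per UMI. Il12b had 854 UMI in 138 wells, Csf1 744 in 168, Il10 205 in 70, Ifnb1 112 in 33, Il6 72 in 25 and Il27 49 in 23. For Il12a and Il23a, 0 of 11472477 UMI allow a level of up to 0.261 CPM over all wells, which covers counting error only, as do all intervals on counts here. Only Tnf had UMI in nearly every well, and the other 6 with UMI are given mainly as summed wells.

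In wells of 60 min and later Tnf rose with 5 stimuli, LPS, MDP_LPS, Zymosan, R848 and Pam3cys, and at 45 min with CpG and FLA as well. Its level with SeV, TDB and MDP was close to that of unstimulated cells. From 60 min on, the 15 NoStim wells ran from 33.4 to 340 CPM with a median of 139. The 15 LPS wells ran from 194 to 2467 (median 713), those of Zymosan from 203 to 1810 (median 873) and those of MDP_LPS from 203 to 1566 (median 866). R848, a ligand of TLR7, gave 225 to 1040 (median 659), and Pam3cys, a TLR2 ligand, 172 to 836 (median 622). Each of these 5 ranges overlapped the NoStim range at its lower end, while every median lay above the highest NoStim well.

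In edgeR's quasi-likelihood test with Benjamini-Hochberg adjustment, averaged over the 3 pretreatments, the log2 rise of Tnf over NoStim was 2.57 ± 0.28 (SE) with Zymosan (adjusted p = 8.55e-15), 2.54 ± 0.28 with MDP_LPS (8.63e-15) and 2.50 ± 0.28 with LPS (4.49e-14). It was 2.03 ± 0.29 with R848 (adjusted p = 8.37e-09) and 1.83 ± 0.30 with Pam3cys (1.11e-06). Poly(I:C), a double-stranded RNA, gave 0.97 ± 0.32 (adjusted p = 0.0823), CpG, a DNA ligand of TLR9, 0.86 ± 0.34 (0.325) and FLA 0.69 ± 0.33 (0.507), none of which passed. SeV, TDB and MDP gave -0.60, -0.46 and -0.21 (adjusted p = 0.797, 0.894 and 1). Tnf was at 139 ± 94.8 CPM with MDP alone and at 870 ± 416 with MDP and LPS (SD, n = 15), and these 2 conditions were not tested against each other.

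The share of all 9202 genes tested that passed was 3.16% for LPS, 3.11% for MDP_LPS, 2.28% for Zymosan, 2.24% for Poly(I:C), 1.76% for R848, 1.45% for Pam3cys, 1% for CpG and 0.913% for FLA. It was 0.0761% for SeV, 0.0326% for TDB and 0.0217% for MDP. Of the 66 pairs of a member and a stimulus tested, 15 passed: 5 for Tnf, 4 for Il12b, 3 for Csf1, 2 for Il10, 1 for Ifnb1 and 0 for Il6, whose lowest adjusted p was 0.404.

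In the DMSO plate alone, Tnf in wells of 60 min and later was ordered LPS (842 ± 797 CPM), MDP_LPS (784 ± 595), R848 (775 ± 204), Zymosan (712 ± 499), Pam3cys (613 ± 262), Poly(I:C) (457 ± 556), FLA (324 ± 98.2), CpG (287 ± 123), NoStim (187 ± 135), SeV (182 ± 76.0), MDP (163 ± 68.8) and TDB (145 ± 123; SD over 5 times, n = 5). The Poly(I:C) mean and its place rest on the well of 60 min at 1443, since the other 4 held 136 to 296, and its median of 267 lay below those of FLA (271) and CpG (310). No 2 neighbours in this order differed beyond their spread (edgeR, adjusted p from 0.811 to 1). Here Tnf rose over NoStim with MDP_LPS (log2 2.03 ± 0.47, adjusted p = 0.00501), LPS (1.95 ± 0.49, 0.0142), R848 (2.001 ± 0.48, 0.0146) and Zymosan (1.83 ± 0.49, 0.0452), while Pam3cys gave 1.72 ± 0.50 (0.119). These were the 4 member calls of 66 in DMSO. The share of all genes called there was 0.956% for MDP_LPS, 0.913% for LPS, 0.489% for Zymosan, 0.424% for R848 and for Poly(I:C), 0.326% for Pam3cys, 0.196% for FLA, 0.13% for CpG, 0.0543% for SeV, 0.0326% for MDP and 0% for TDB.

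**Figure D1:**
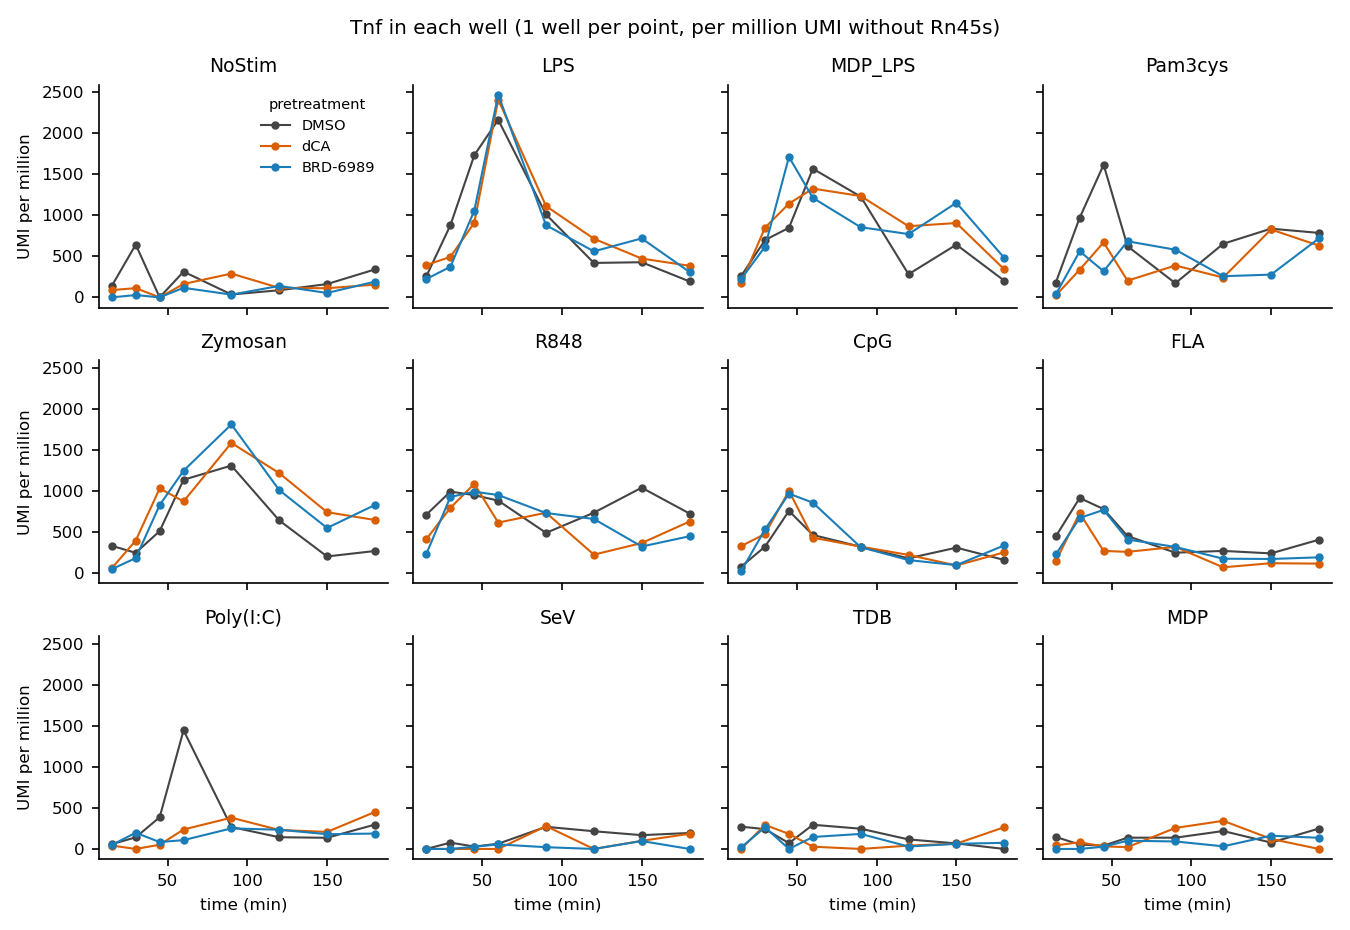
Tnf in every well, as CPM without Rn45s (vertical axis) against time after stimulation in minutes (horizontal axis), in 1 panel per condition and 1 line per pretreatment, with 1 well per point. LPS reached 2161 to 2467 at 60 min and Zymosan 1309 to 1810 at 90 min on the 3 plates.

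The mean of Tnf over the plates peaked at 30 min with FLA, at 45 min with CpG, R848 and Pam3cys, at 60 min with LPS and MDP_LPS and at 90 min with Zymosan. The plates did not agree for all of these. Pam3cys was highest at 45 min in DMSO (1614), at 150 min in dCA (826) and at 180 min in BRD-6989 (717), so its mean peak rests on the DMSO well, beside 669 and 317 at 45 min on the other plates. R848 was highest at 150 min in DMSO (1040) and at 45 min on the other plates, and MDP_LPS at 45 min in BRD-6989 (1710) and at 60 min on the others. With LPS the DMSO wells read 260, 877, 1730, 2161, 1009, 419, 428 and 194 CPM from 15 to 180 min, the dCA wells 394, 492.5, 908, 2407, 1111, 713, 472 and 384, and the BRD-6989 wells 224, 372, 1055, 2467, 878, 560, 718 and 309. All 3 LPS courses peaked at 60 min, and at 180 min the DMSO and BRD-6989 wells lay within the range of the NoStim wells. With Zymosan, yeast cell wall particles, the peak lay at 90 min on all 3 plates (1309, 1585 and 1810 in DMSO, dCA and BRD-6989).

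With CpG the highest wells were at 45 min on all 3 plates (758, 1001 and 968). With FLA the 30 min wells held 915, 731 and 672, and the DMSO and dCA plates peaked there, while the BRD-6989 plate peaked at 45 min with 770. R848 held 950, 1087 and 992 at 45 min and was still at 726, 628 and 449 at 180 min. In the NoStim wells Tnf was at 140, 642, 0, 313, 35.2, 86.6, 162 and 340 in DMSO, with 642 at 30 min the highest of the 24. At 45 min all 3 NoStim wells had 0 Tnf UMI of 106334, a zero that makes folds at that time lower bounds, for the counting error of those wells only.

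The change from 30 and 45 min to 90 and 120 min was tested within each condition. It passed for Tnf with Zymosan (log2 1.38 ± 0.33, edgeR adjusted p = 0.0138), where the later wells were higher, and with FLA (-1.59 ± 0.37, 0.0251), where they were lower. With LPS the same difference was -0.12 ± 0.32 (adjusted p = 1). These were the 2 calls of 48 member tests, against 0.226% of all genes and conditions. Taken against the LPS course itself, Zymosan gave 1.499 ± 0.46 (adjusted p = 0.755) and FLA -1.46 ± 0.49 (0.501) for Tnf, so a difference of their courses from that of LPS was not shown. Over all genes and stimuli 0.0584% passed that test.

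Against the NoStim wells of the same time, Tnf passed in 22 of 88 pairs of stimulus and time (edgeR): 7 stimuli at 45 min, 4 at 60 min, 4 at 90 min, 2 at 120 min and 5 at 150 min. At 15, 30 and 180 min no stimulus passed, with the lowest adjusted p at 0.364, 0.0957 and 0.209. From 15 to 180 min, the share of all gene and stimulus pairs called was 0.0769%, 0.0766%, 0.145%, 0.176%, 0.227%, 0.268%, 0.587% and 0.74%. At 45 min the floor was 3 UMI over the 3 NoStim wells, or 28.2 CPM. Tnf was at least 44.0-fold above it with MDP_LPS, 43.3-fold with LPS, 35.8-fold with R848 and 32.8-fold with CpG. With Zymosan it was 29.1-fold, with Pam3cys 29.0-fold and with FLA 22.7-fold above. These folds and the 7 calls at 45 min rest on NoStim wells without Tnf UMI, and the folds leave out the counting error of the stimulated wells. NoStim wells held 642, 112 and 28.3 CPM at 30 min and 313, 163 and 116 at 60 min (DMSO, dCA, BRD-6989). Folds over the summed NoStim level of 30 min, 251 CPM, would be far smaller. At 60 min the log2 rise was 3.66 ± 0.45 with LPS, and at 90 min 3.97 ± 0.56 with Zymosan (edgeR, n = 3 wells, 1 per plate). The lone early NoStim well at 642 stands beside the absence of calls at 30 min, and its part in it was not tested.

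Il12b, Csf1 and Il10 each passed with a subset of the stimuli that raised Tnf. Ifnb1 passed with MDP_LPS alone, but had the most UMI with SeV, where Tnf did not rise. Since many NoStim wells had no UMI of these genes, the ratio of summed levels with its counting interval is given with the adjusted p of the fit. Il12b had a median of 0 CPM over the 15 NoStim wells of 60 min and later (highest 162) and of 194 with LPS (0 to 972), 205 with MDP_LPS (0 to 911), 184 with Zymosan (0 to 498) and 101 with R848 (0 to 373). The groups overlapped, since each of these stimuli had wells below the highest NoStim well, some with Il12b UMI and some without.

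Summed, Il12b was 12.8-fold higher with MDP_LPS than NoStim (95% interval 7.45 to 23.8, adjusted p = 2.30e-10, 198 against 14 UMI) and 12.7-fold with LPS (7.37 to 23.7, 8.28e-09). It was 9.09-fold higher with Zymosan (5.22 to 17.1, adjusted p = 3.47e-06) and 4.58-fold with R848 (2.55 to 8.84, 0.0185). The R848 call was lost when 60, 150 or 180 min was left out (edgeR adjusted p up to 0.111). With CpG the ratio was 4.75 and did not pass (adjusted p = 0.0525). Pam3cys raised Tnf and had an Il12b ratio of 0.796 (0.327 to 1.89, 11 against 14 UMI).

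Csf1 rose with MDP_LPS (3.12-fold, interval 2.05 to 4.90, edgeR adjusted p = 0.00299), LPS (2.85-fold, 1.85 to 4.53, 0.0150) and Zymosan (2.86-fold, 1.85 to 4.53, 0.0152). Its NoStim wells ran from 0 to 350 (median 0) and those of MDP_LPS from 0 to 301 (median 141), so the ranges overlapped fully. With Pam3cys the Csf1 ratio was 2.45 (1.57 to 3.91) and did not pass (adjusted p = 0.0665). The Csf1 call with LPS was lost when 120 or 180 min was left out (edgeR adjusted p up to 0.226). Its call with Zymosan was lost without 60, 120 or 180 min (up to 0.119).

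Il10 rose with MDP_LPS, at 52 UMI against 1 in NoStim (80.7 against 1.72 CPM, ratio 47.1, interval 8.08 to 1894, edgeR adjusted p = 0.000791), and with R848, at 36 UMI (ratio 35.0, 5.89 to 1421, adjusted p = 0.0353). The R848 call was lost when 90, 120, 150 or 180 min was left out (adjusted p up to 0.315). The MDP_LPS call was lost without 150 min (0.109). LPS alone gave 20 Il10 UMI and did not pass (adjusted p = 0.108). In MDP_LPS wells of all times Il10 had 24, 15 and 27 UMI in DMSO, dCA and BRD-6989, and in R848 wells 15, 5 and 19. Single plates held other counts: CpG gave 10 Il10 UMI in dCA and 1 in each of the other plates, FLA 11, 5 and 1 (DMSO, dCA, BRD-6989).

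Ifnb1, the interferon gene, had no UMI in the 24 NoStim wells and its counts came from 3 conditions above all. SeV gave 41 UMI in wells of 60 min and later, at least 13.0-fold over the NoStim floor of 3 UMI (edgeR adjusted p = 0.0905). MDP_LPS gave 32 UMI, at least 9.66-fold (0.0286), and LPS 19 UMI, at least 6.47-fold (0.155). Only MDP_LPS passed.

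The SeV counts of Ifnb1 all lay at 120 to 180 min, with 7, 2 and 9 UMI at those 3 times on the DMSO plate, 4, 0 and 4 on the dCA plate and 3, 6 and 6 on the BRD-6989 plate. SeV was thus the condition with the most Ifnb1 UMI after 60 min and the one with a Tnf ratio of 0.728 (0.523 to 1.01) to NoStim. Poly(I:C), the other RNA ligand, had 4 Ifnb1 UMI there, or 5.67 CPM beside a floor of 5.15, so no rise was shown (adjusted p = 1).

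Il6 had 28 UMI with MDP_LPS and 16 with Zymosan, against 1 in NoStim (edgeR adjusted p = 0.404 and 1). No stimulus passed for it. In MDP_LPS wells the 3 plates held 10, 1 and 17 UMI (DMSO, dCA, BRD-6989), and in Zymosan wells 0, 7 and 9, the last 2 each in the single well at 180 min. Il27 was too sparse to be tested, and its R848 wells held 12, 0 and 4 UMI, its LPS wells 7, 1 and 4.

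**Figure D2:**
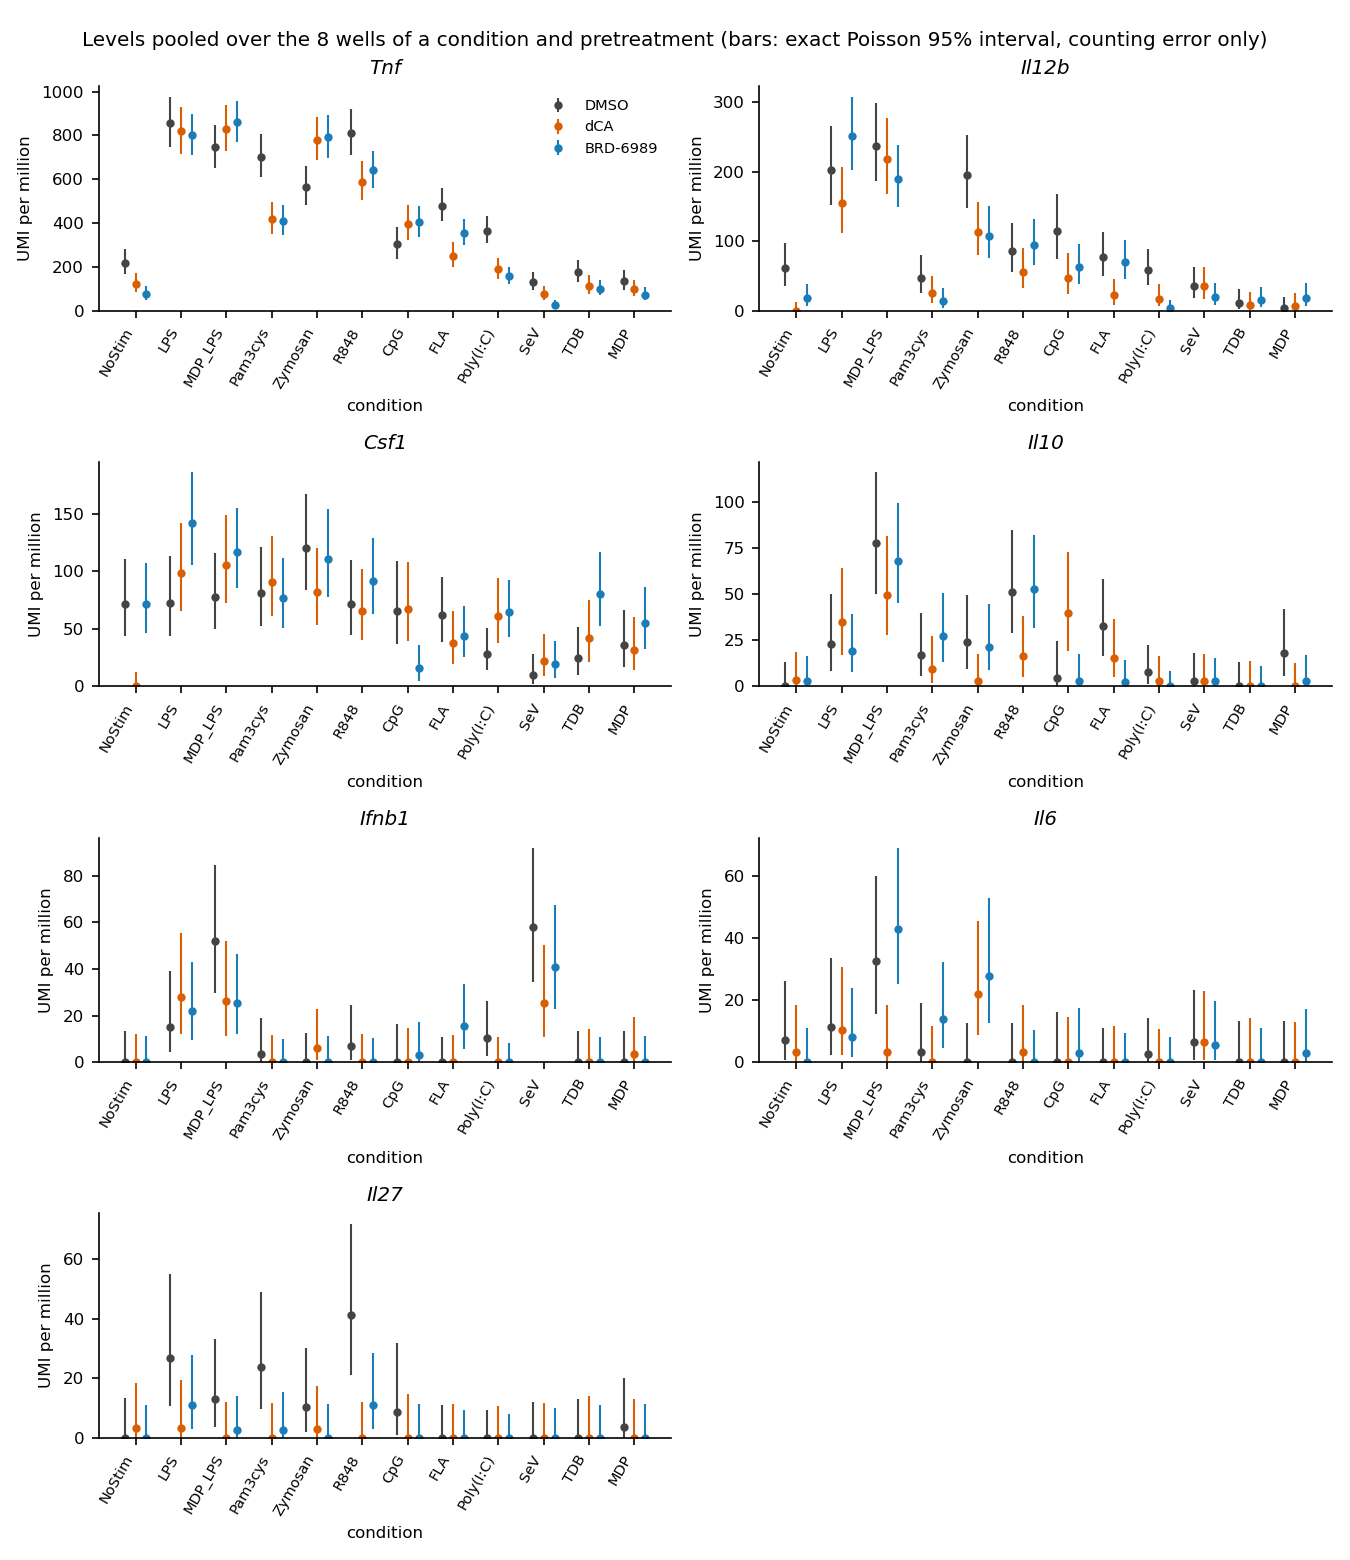
Summed level of the 7 members with UMI (CPM without Rn45s) in each condition and pretreatment, 8 wells per point, with the exact 95% Poisson interval, which covers counting error only. Tnf spanned 129 to 857 CPM over the 12 conditions in DMSO, and Il12b 3.61 to 237.

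Among the stimulated wells, 33 at each time, the first time past the threshold was 30 min for Tnf, 90 min for Csf1, 120 min for Il12b, 150 min for Il10 and Ifnb1 and 180 min for Il6. Summed Tnf was at 157 CPM at 15 min, 419 at 30 min, 644 at 45 min, 704 at 60 min and 567 at 90 min, and then at 357, 357 and 343. Csf1 was at 31.7, 18.6, 30.7 and 69.3 CPM at the first 4 times and at 110.5, 93.8, 91.0 and 89.4 at the last 4. Il12b was at 16.9, 39.3, 25.6, 57.5 and 64.6 CPM up to 90 min and reached 124, 143.7 and 156 at 120, 150 and 180 min.

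Tested against 15 min, Tnf was higher at all 7 later times, most at 60 min (log2 2.10 ± 0.22, edgeR adjusted p = 6.70e-16). Csf1 was higher from 90 min on (1.72 ± 0.38 at 90 min, adjusted p = 0.000919) and Il12b from 120 min on (2.64 ± 0.47, 5.77e-06, and 2.87 ± 0.44 at 180 min, 2.61e-08). Il10 was higher at 150 min (3.21 ± 0.67, adjusted p = 0.000193) and at 180 min (3.42 ± 0.65, 2.25e-05). Il6 passed at 180 min alone (2.72 ± 0.78, 0.0188) and Ifnb1 at 150 min alone (2.64 ± 0.82, 0.0412), each from 1 UMI at 15 min, so these folds depend on few counts.

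Of the 69 Il6 UMI of stimulated wells, 59 lay at 150 and 180 min, and of the 112 Ifnb1 UMI 107 lay at 60 min or later. All 6 members tested changed over time in the 7-degree test (adjusted p from 5.62e-17 for Tnf to 0.0273 for Ifnb1), beside 10% of all 9992 genes, and 2.32% of all comparisons of a gene at a later time with 15 min passed. In the DMSO wells alone the 7-degree test passed for 2 of the members, and fewer of all genes passed too, as counted with the processing below. No share of all genes is given for that fit, so the 2 are not read as a result about the members. The calls against 15 min at these first times were lost in the DMSO wells (edgeR). Adjusted p was 0.326 for Tnf at 30 min, 0.0787 for Csf1 at 90 min, 0.0656 for Il12b at 120 min and 0.465 for Il10 at 150 min. Tnf kept its calls at 45 and 60 min. The first time past a threshold moves with a gene's count, and the order of the members was not itself tested.

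**Figure D3:**
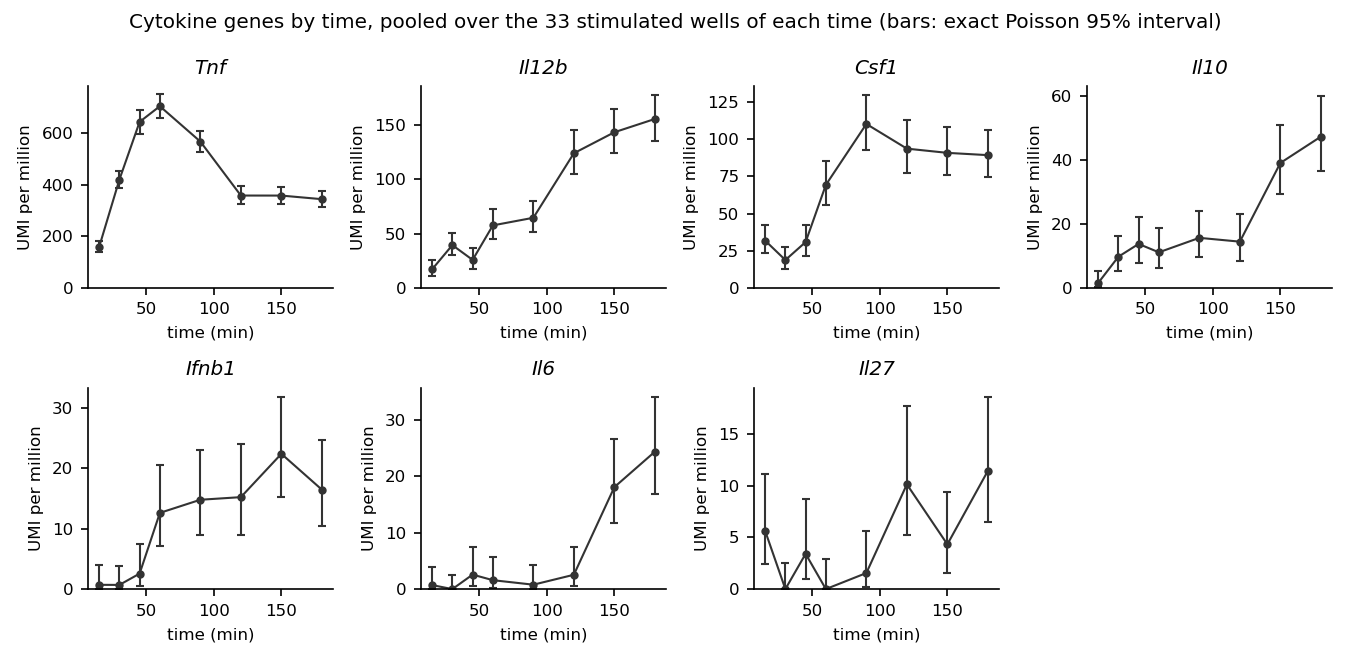
Level of the 7 members with UMI summed over the 33 stimulated wells of each time (CPM without Rn45s, vertical axis) against time in minutes, with exact 95% Poisson intervals for counting error. Tnf was highest at 60 min at 704, while Il12b, Il10 and Il6 were highest at 180 min.

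Il12b was lower in the dCA plate and Tnf lower in the BRD-6989 plate, each by less than 2-fold, and no member was higher with an inhibitor by the test. Over the 12 conditions, summed over times, Il12b ran from 3.61 to 237 CPM in DMSO (median 69.2), from 0 to 218 in dCA (median 30.1) and from 4.45 to 251 in BRD-6989 (median 40.8). The ranges overlapped, but Il12b was lower in dCA than in DMSO in 11 of 12 conditions, all but MDP, and lower in BRD-6989 in 8.

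Blocking on the condition, the log2 difference of Il12b was -0.85 ± 0.27 for dCA (edgeR adjusted p = 0.0296) and -0.56 ± 0.26 for BRD-6989 (0.193). The dCA call was lost with the Rn45s share as a covariate (adjusted p = 0.300), in wells of 60 min and later (0.166), with total reads in place of UMI (0.198) and with no replicate block (0.698). It was also lost without the NoStim, CpG, FLA or Poly(I:C) wells (adjusted p = 0.0886, 0.0635, 0.0670 and 0.0590), with log2 values of -0.68 to -0.82. The exact permutation test over the 12 conditions (two-sided, all sign arrangements) gave p = 0.00342 for Il12b with dCA, or 0.0718 adjusted over 21 tests of members.

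Tnf ran from 129 to 857 CPM in DMSO (median 422), from 76.4 to 828.8 in dCA (median 324) and from 27.3 to 861 in BRD-6989 (median 379). It was lower with each inhibitor in 9 of 12 conditions, and the 3 conditions where it was higher were MDP_LPS, Zymosan and CpG for both. The difference was -0.42 ± 0.12 for BRD-6989 (edgeR adjusted p = 0.0145) and -0.32 ± 0.13 for dCA (0.107). The exact permutation p was 0.0249 and 0.0273, 0.115 adjusted for each. Without 2 DMSO wells with high Tnf, NoStim at 30 min and Poly(I:C) at 60 min, the values were -0.31 (adjusted p = 0.0805) and -0.20 (0.370). The BRD-6989 call was also lost with the Rn45s share as a covariate (-0.68, 0.347), in wells of 60 min and later (-0.29, 0.220), over single wells (-0.27, 0.128), with edgeR's newer dispersion (-0.29, 0.0855) and with no replicate block (-0.17, 0.911). It was lost too without the NoStim, Pam3cys, Poly(I:C) or TDB wells (adjusted p = 0.0696, 0.0568, 0.0653 and 0.0543). The dCA value passed with no minimum beyond 1 UMI (adjusted p = 0.0253).

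Of 6 members tested, 1 passed for each inhibitor, both lower, and the background was large: 10.1% of 10134 genes passed for dCA (4.45% as lower) and 11.2% for BRD-6989 (5.32% as lower). Beside it, 1 of 6 members is not a result particular to them. Il10 had 78, 52 and 75 UMI on the 3 plates (DMSO first, then dCA and BRD-6989) and gave -0.50 ± 0.53 for dCA (95% interval -1.54 to 0.55, adjusted p = 0.705) and -0.54 ± 0.51 for BRD-6989 (-1.53 to 0.45, 0.624). It was lower in 8 and higher in 3 conditions with either inhibitor. Csf1 gave 0.03 ± 0.27 (adjusted p = 0.978) and 0.34 ± 0.26 (0.519), and Ifnb1 -0.62 ± 0.78 (0.758) and -0.44 ± 0.74 (0.818). Il6 gave -0.22 ± 0.83 (0.934) and 0.52 ± 0.81 (0.800).

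Il27 had 36 UMI on the DMSO plate, 3 on that of dCA and 10 on that of BRD-6989 (10.2, 0.833 and 2.31 CPM). The summed ratio to DMSO was 0.0820 for dCA (interval 0.0162 to 0.260) and 0.227 for BRD-6989 (0.101 to 0.467). With 49 UMI it was under the minimum of 50 for the fit, and fitted without that minimum it gave adjusted p = 0.172 and 0.244. The exact permutation p was 0.0156 for both, 0.109 adjusted. In DMSO, 7 of these UMI came from 1 Pam3cys well at 15 min and 8 from 1 R848 well at 120 min.

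**Figure D4:**
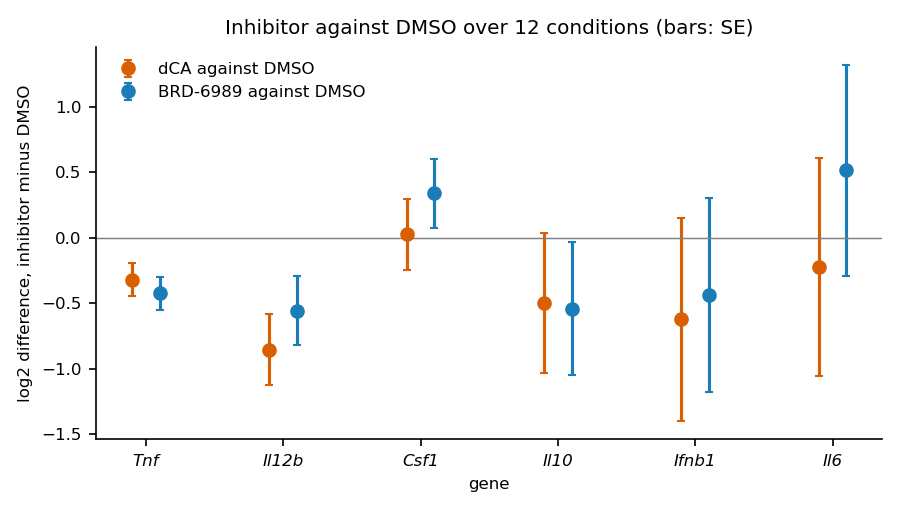
Log2 difference of each tested member from DMSO over 12 conditions, summed over times, for dCA and BRD-6989, with bars for the SE of the edgeR fit. Il12b with dCA (-0.85) and Tnf with BRD-6989 (-0.42) were the 2 that passed.

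The 2 inhibitors were given at different doses, 100 nM and 1 µM, so their difference is that of these 2 treatments. dCA minus BRD-6989 was 0.10 ± 0.12 for Tnf (interval -0.14 to 0.35, edgeR adjusted p = 0.859) and -0.30 ± 0.27 for Il12b (-0.83 to 0.24, 0.784). Of the 6 members 0 passed, while 1.34% of all genes passed. An unadjusted p under 0.05 was found for 0 of the 6 members, beside 1089 of 10134 genes. A p above the threshold does not show that the treatments act alike.

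Within single conditions, over the wells of 60 min and later, none of the tests of 6 members passed for either inhibitor in edgeR, 6 of these tests had an unadjusted p under 0.05 and the lowest adjusted p was 0.385. Over all genes and conditions 7.63% of tests with dCA and 7.94% with BRD-6989 had an unadjusted p under 0.05. After adjustment 0.192% passed for dCA and 0.263% for BRD-6989. The change of the response to stimulus with an inhibitor, averaged over the 11 stimuli, was -0.01 ± 0.62 for Tnf with dCA and 0.40 ± 0.66 with BRD-6989 (adjusted p = 1 for both). With dCA it was 3.82 ± 1.90 for Il12b (edgeR unadjusted p = 0.0457) and 3.81 ± 2.02 for Csf1 (0.0604). These 2 values rest on unstimulated dCA wells with 0 UMI of either gene. With BRD-6989 Il12b gave 1.42 and Csf1 -1.27. No gene passed this test (0% of 9202 for each inhibitor, with 413 and 370 unadjusted), nor the test of any difference among stimuli (0% and 0%, with 690 and 611 unadjusted). Tnf had an unadjusted p of 0.0255 in the latter for BRD-6989 (adjusted p = 0.715).

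In unstimulated cells, Tnf ran from 0 to 642 CPM in the 8 DMSO wells (median 151), from 0 to 289 in dCA (median 114) and from 0 to 191 in BRD-6989 (median 43.6). The 3 ranges overlapped. The difference from DMSO was -0.78 ± 0.50 for dCA (edgeR adjusted p = 0.633) and -1.44 ± 0.53 for BRD-6989 (0.256).

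Il12b had 17 UMI in the unstimulated DMSO wells, 0 in dCA and 6 in BRD-6989, and Csf1 20, 0 and 24. DMSO was thus at least 6.12-fold above dCA for Il12b (edgeR adjusted p = 0.328) and at least 7.20-fold for Csf1 (0.249), with the floor at 3 UMI over the 8 dCA wells. These folds leave out the counting error of the DMSO wells. Of the Csf1 UMI, 13 of the 20 in DMSO lay in the 15 min well and 13 of the 24 in BRD-6989 in the 150 min well. The members tested here were 3, Tnf, Il12b and Csf1, and none passed for either inhibitor, beside 0.963% and 0.979% of 6438 genes. Unadjusted p-values under 0.05 were those of Il12b (0.0121) and Csf1 (0.00595) for dCA and of Tnf (0.00857) for BRD-6989, beside 10% and 10.1% of all genes under that limit. Il12b reached the minimum of 20 UMI for this fit only through its DMSO wells. Its p-value is therefore no support for a difference.

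Over the 36 summed libraries, which share plates and depth, the genes whose log2 level followed Tnf most closely were Nfkbia (Pearson r = 0.93), Pim1, Ccl3 and Cxcl2 (0.91 each) and Tnfsf9 (0.90), out of 6587 candidates. Nfkbia encodes the NF-kB inhibitor IkB alpha, and Ccl3 and Cxcl2 are chemokines. For Il12b they were Il1b (0.85), Ccl4 (0.84), Socs3 (0.83), Ccl3 and Dusp2 (0.82 each). For Il10 they were Sdc4 (0.80), Pim1, Nfkbiz and Dusp2 (0.76 each) and Tnfaip2 (0.75), and for Csf1 Il1b (0.68), Cxcl1 (0.67), Jdp2 and Sqstm1 (0.65 each) and Tiparp (0.64).

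Over the same 12 conditions, lists of related genes were read beside all 10134 genes tested. Of all genes 10.1% passed for dCA (4.45% as lower) and 11.2% for BRD-6989 (5.32% as lower). The lists were chosen with earlier results of these data known, and no list was tested as a set against that background. Of 10 receptor genes of the 9 cytokines tested, 0 rose and 4 fell with dCA, 2 rose and 2 fell with BRD-6989. Tnfrsf1a, the main TNF receptor, fell with both (-1.05 ± 0.20 and -0.87 ± 0.19, edgeR adjusted p = 7.69e-05 and 0.000713), as did Csf1r, the M-CSF receptor (-0.23 ± 0.06 and -0.45 ± 0.06). Tnfrsf1b, the other TNF receptor, rose with BRD-6989 (0.46 ± 0.09). The median of the 10 was 0.09 for dCA and -0.10 for BRD-6989, beside -0.0050 and 0.03 over all genes tested.

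Of 19 genes of TNF release and signalling, 0 rose and 3 fell with dCA, 0 rose and 5 fell with BRD-6989. Birc3, a ubiquitin ligase of the TNF receptor complex, fell by 0.61 ± 0.13 and 0.76 ± 0.13 on the log2 scale (adjusted p = 0.00032 and 4.58e-06), and Casp8 by 0.85 ± 0.23 and 0.89 ± 0.23. The list's median was -0.19 for dCA and -0.16 for BRD-6989. Of 15 genes of the STAT pathway, 0 rose and 5 fell with each inhibitor, among them the phosphatase Ptpn6 (-0.95 ± 0.15 and -0.81 ± 0.15) and, with dCA, Socs3, the feedback inhibitor of IL-6 signalling (-1.05 ± 0.21). The list's median was -0.41 for dCA and -0.50 for BRD-6989.

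Of 22 other secreted cytokines and growth factors, 4 rose and 3 fell with dCA, 5 rose and 4 fell with BRD-6989. Il1b, encoding IL-1 beta, fell with both (289, 127 and 167 CPM in DMSO, dCA and BRD-6989, log2 -1.32 ± 0.18 and -0.92 ± 0.17, adjusted p = 2.89e-08 and 3.03e-05). Il1rn, encoding the IL-1 receptor antagonist, rose with both (51.4, 107 and 94.2 CPM, 1.27 ± 0.26 and 1.14 ± 0.26), as did Spp1, encoding osteopontin (0.60 ± 0.06 and 0.82 ± 0.06). The list's median was 0.01 for dCA and -0.25 for BRD-6989.

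Among 34 transcription factors that act at cytokine promoters, 1 rose and 9 fell with dCA, 1 rose and 6 fell with BRD-6989. Of all genes, 4.45% and 5.32% fell. Junb, a subunit of AP-1, fell with dCA (-0.67 ± 0.09), and Irf7, a factor of interferon gene induction, with BRD-6989 (-1.83 ± 0.16). Cebpa rose with dCA (1.17 ± 0.28) and Atf3 with BRD-6989 (0.82 ± 0.15). The list's median was -0.33 for dCA and -0.29 for BRD-6989. Of 19 genes that control decay or translation of cytokine mRNA, 1 rose and 1 fell with each inhibitor: Zfp36l1, an AU-rich element binding protein (0.91 ± 0.11 and 1.17 ± 0.11), and the kinase gene Mapkapk2 (-0.66 ± 0.10 and -0.65 ± 0.10). Their median was -0.25 for dCA and -0.17 for BRD-6989.

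Of 6 genes of the Mediator kinase module, 1 fell with dCA (Med13l, -0.39 ± 0.13, adjusted p = 0.0476) and 1 with BRD-6989 (Med12, -1.01 ± 0.25, 0.00294). The median was -0.22 for dCA and -0.0021 for BRD-6989. The kinase gene Cdk8 was at 18.4, 30.4 and 26.7 CPM (0.85 ± 0.47 and 0.66 ± 0.46, adjusted p = 0.315 and 0.457), its paralogue Cdk19 gave -0.37 ± 0.44 and -0.55 ± 0.45 (0.743 and 0.553) and the cyclin gene Ccnc 0.31 ± 0.44 and 0.92 ± 0.42 (0.791 and 0.182). Inhibition of a kinase need not change its mRNA, so these values do not check the treatment.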

How the data were processed

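The authors deposited UMI counts per gene, and total read counts, of 3′ digital gene expression libraries of polyA RNA. The submitters' processing notes name BWA, edgeR and mm10, with no versions. Counts without Rn45s were tested with edgeR 4.0.16 (R 4.3.3; quasi-likelihood, TMM, two-sided, Benjamini-Hochberg over all genes tested, adjusted p under 0.05). Over conditions, 8 times were summed into 36 libraries with the condition as a block (genes of at least 50 UMI). Single wells had time as a factor (at least 50 UMI, or 20 for unstimulated wells), and DESeq2 1.42.0 was an alternative. The 36 libraries used edgeR's older dispersion and single wells the newer. Permutation tests used log2(level + 10). The fits were tested on simulated data with 100 genes changed 4-fold and 100 changed 2-fold. The 36 summed libraries recovered 100 and 86 of them, and the unstimulated wells 95 and 43. For 1 stimulus in 1 pretreatment, in wells of 60 min and later, 38 and 13 were recovered. A missing call in DMSO alone or within a condition is therefore weak evidence of no change. The changed genes were drawn from those with at least 4 times the minimum UMI of each fit. The simulated counts had a preset spread and no effect of condition. Il6 and Ifnb1, at 72 and 112 UMI, lay below that level in the 36 libraries, so these recoveries do not extend to them.

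Times were matched across plates by design, as labelled. The series text speaks of other limits of time than the labels, and label times were used. Named genes are the 9 members, the 5 genes most like each member of 200 UMI or more (mean of at least 20 CPM), up to 3 genes each way per list by adjusted p, the top markers of other cells, Rn45s, Cdk8, Cdk19 and Ccnc. Not every gene that this rule names is reported here. Members and lists were chosen with earlier results of these data known. The table uses older symbols for Adgre1 (Emr1) and Spi1 (Sfpi1). Reporter counts were not used. Python numpy 2.4.6, scipy 1.17.1 and matplotlib 3.10.9 did the rest.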

Additional observations from a re-analysis of the deposited data

Results flagged for a closer look

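Of 20 groups of wells searched for a well that stands far from the others, 2 held one. The unstimulated dCA wells of Il12b and of Csf1 were all at 0 UMI and could not hold one. How often chance gives such a well in counts this sparse was not tested. In DMSO, the Poly(I:C) well of 60 min had Tnf at 1443 CPM, and the next of the 5 wells of 60 min and later had 296. The wells of the same condition and time held 237 in dCA and 108 in BRD-6989. Among the 8 unstimulated wells of the BRD-6989 plate, Csf1 was at 349.5 CPM at 150 min, and the next well had 92.6.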

How the results depend on the processing

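Over 76 tested values of members and 797 alternatives, 64 lost a call, 9 gained one and 21 changed sign, and the rest kept direction and side of the threshold. The cause of these changes was not tested.

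For dCA over the 12 conditions, 1027 genes were called, 561 with the Rn45s share as a covariate and 678 in wells of 60 min and later. The count of members, 1, became 0 with total reads, with that covariate, in wells of 60 min and later and with no replicate block, and 2 with no TMM and with no filter beyond 1 UMI. Leaving out a condition in turn gave 0 to 2. For BRD-6989 the counts were 1138 genes, 166 with the covariate and 738 in wells of 60 min and later. The 1 member became 0 with the covariate, in wells of 60 min and later, with no replicate block, over single wells, and, both chosen after seeing the data, with the newer dispersion and without 2 DMSO wells. Leaving out conditions gave 0 to 1. With no replicate block 773 and 924 genes were called for dCA and BRD-6989.

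dCA against BRD-6989 gave 136 genes, 78 with total reads, 64 with the covariate, 52 in wells of 60 min and later, 58 with no replicate block, 341 over single wells and 252 in DESeq2. Stimulus calls over the plates, 1476 pairs of a gene and a stimulus, ran from 920 to 1504 when a time was left out, and in DMSO, 363 such pairs, from 227 to 357. Member calls in DMSO, 4, were 2 with total reads and 0 to 4 when a time was left out. Within conditions 502 pairs of a gene and a comparison, summed over conditions and inhibitors, were called, 324 with total reads, 1141 with all 8 times and 223 to 309 when a time was left out. The test of any dCA effect on the response, 0 genes in edgeR, gave 4 with total reads and 1 with all 8 times. In unstimulated wells dCA gave 62 genes, 37 with total reads and 129 with no replicate block, which called 2 members, Il12b and Csf1, both at 0 UMI in dCA. BRD-6989 gave 63 genes, 36 with total reads, 118 with no replicate block and 98 in DESeq2. Over time 999 genes and 6 members were called, and 243 and 2 in DMSO wells only.

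Sign changes were all of uncalled values. Il6 with dCA was 0.48 in wells of 60 min and later, Il6 with BRD-6989 -0.0523 with total reads and Ifnb1 with BRD-6989 0.0897 with the covariate. Csf1 with dCA was -0.0445 with no TMM, -0.0244 over single wells and -0.0823 to 0.22 when a condition was left out. Tnf in dCA against BRD-6989 was -0.0009 over single wells. Tnf with MDP was -0.43 to 0.0141 when a time was left out. In DMSO alone, Tnf with SeV was 0.0027 when genes under a mean of 1 UMI a well were dropped and -0.44 to 0.36 when a time was left out, with TDB -0.88 to 0.30, and with MDP 0.11 with total reads and -0.56 to 0.0294. Csf1 in unstimulated BRD-6989 wells was -0.80 to 1.53 when a time was left out. With all 8 times, Tnf also passed for CpG and FLA. Il12b with dCA kept its call in DESeq2, and Tnf with BRD-6989 too.

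Depth limits the single wells: 1 UMI in a well is a level of 14.1 to 45.9 CPM, and Il12b, Il10, Ifnb1, Il6 and Il27 were each at 0 in most wells.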
